A study of Arabidopsis thaliana with 12 samples.

Results

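The change in the response of Arabidopsis thaliana inflorescences to the release of HANABA TARANU (HAN) was measured as the log2 ratio at 72 h minus the log2 ratio at 4 h. The arrays titled HAN-72h and HAN-4h gave the members, 4 arrays per time, so that 8 of the 12 arrays of the series are compared. The statistical model was fitted to all 12 arrays, so the 12 h arrays enter its error estimate and dye term. All plants carried 35S:HAN-GR and were of the Landsberg erecta background; the constitutive 35S promoter drives HAN fused to the glucocorticoid receptor (GR). The tissue was inflorescences with flower buds of stages 1 to 9. Each array set RNA of plants treated with 10 µM dexamethasone (Dex) against RNA of mock-treated plants of the same time, the 72 h arrays at 72 h and the 4 h arrays at 4 h. Arrays of one time are biological replicates by their labels, which place the Dex RNA in Cy5 on 2 arrays of each time and in Cy3 on the other 2. The mock plants carry the fusion too, and no Dex-treated plants without it were among the samples, so what Dex does by itself and what HAN-GR does cannot be told apart.

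HAN is a GATA-type transcription factor expressed at the boundaries between meristem and organ primordia, and it is known for its part in floral organ number and embryo patterning. In a GR fusion the hormone-binding domain keeps the protein in the cytoplasm until Dex releases it to the nucleus. The comparison asks which genes respond differently long after the release of the factor than soon after it. The list of 5 GATA genes, HAN among them, had 0 measured members and is not analysed here. The expression of HAN therefore gives no check of the labels, and ratios carry no levels with which the tissue could be checked against marker genes. In whole inflorescences, fewer cells of a type and less RNA per cell cannot be told apart.

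Each value is a log2 ratio between the 2 channels of an array, centred here on the array's median. Signs read as Dex over mock, which is the likely direction but is not given in the sources used here. With the sign turned, every higher value below becomes lower and the reverse. The medians of the deposited columns ran between -0.28 and 0.13 over the 4 h and 72 h arrays, and their centring and background correction are likewise not given. Over the series an array gave 21888 to 22385 gene probes with a value, and 9.43% to 17.2% of those sat exactly at the largest or the smallest value of the table, which is a bound and was set missing. The sign of the limit values followed the labelled dye on the 72 h arrays but not on the 4 h arrays, where replicates 1 and 2 share a labelled dye and differ in that sign. Replicate 3 of 72 h stands apart, with a median absolute log2 ratio of 0.50 against 0.20 to 0.28 on the other 7 arrays. Across features, the 4 arrays of 72 h correlated with each other at 0.06 to 0.51 and those of 4 h at 0.18 to 0.64. At 4 h, replicates 1 and 4 (0.55) and 2 and 3 (0.64) share the sign of the limit values. Replicates 1 and 2 (0.20) and 3 and 4 (0.18) share the labelled dye. The dye term of the main fit follows the labels, so at 4 h it does not follow this pattern. The median SD over features was 0.34 at 72 h and 0.21 at 4 h. It was 0.19 at 12 h, whose arrays enter the error of the main fit.

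Of 18125 features, 1549 had a different response at 72 h than at 4 h, or 8.55% (limma, adjusted p under 0.05). Of these, 902 had a higher ratio at 72 h (4.98% of the features tested) and 647 a lower one (3.57%). In 509 the ratio was higher by over 1 on the log2 scale, and in 277 it was lower by over 1. The highest 72 h value of the 509 was on replicates 1 to 4 in 37, 131, 293 and 48 features. For the 277, the lowest 72 h value was on them in 29, 72, 99 and 77. The 4 arrays of 72 h did not overlap the 4 of 4 h in 1445 of the 1549 features (93.3%), beside 2798 of all 18125 features (15.4%). Taken alone, the response passed in 3758 features at 72 h (20.7%) and in 2009 at 4 h (11.1%). The count of differences was 592 when only these 8 arrays were fitted, 581 of them among the 1549. It was 1911, with 1524 of the 1549 among them, when the dye was taken from the sign of the blank spots in place of the labels. Leaving out 72 h replicate 3 gave 1685 features, 1296 of them among the 1549, and leaving out 4 h replicate 4 or 72 h replicate 4 gave 1011 and 1034. Of 10649 features with a gene name, 817 differed (7.67%). Of the 1270 genes with a symbol, 128 differed (10.1%), 80 of them higher at 72 h (6.3%) and 48 lower (3.78%), and with only the 8 arrays the numbers were 59, 36 and 23.

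**Figure D1:**
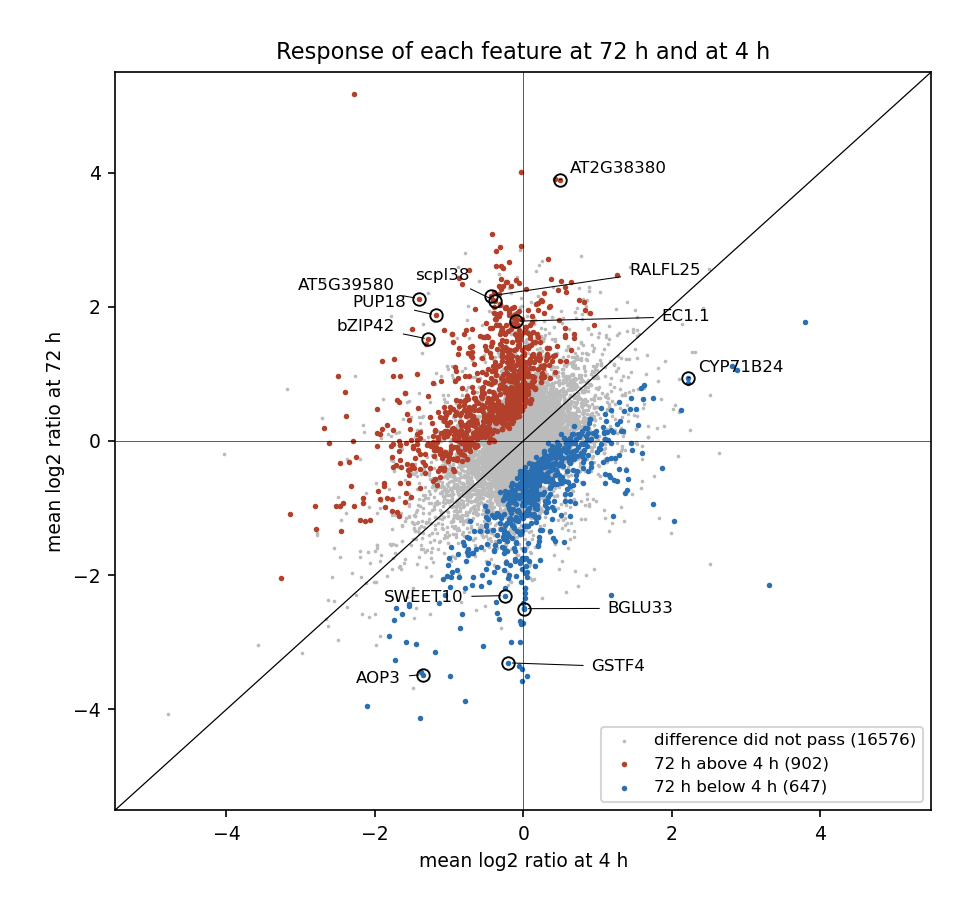
Mean centred log2 ratio at 72 h (y axis) against that at 4 h (x axis) for each of 18125 features. Red points (902) lie above the diagonal of equal response and blue points (647) below it by a difference that passed, grey points did not pass, and rings mark the named genes. The red points are densest above a 4 h ratio near 0 or below it.

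Most of these features had a response at 72 h and none that passed at 4 h. That class held 861 of the 1549 features (55.6%), 480 higher and 381 lower at 72 h. The classes rest on the same tests against 0, with an error shared by all times that does not allow for the wider spread of 72 h. In 395 features the response passed at 4 h only, and the ratio had moved up in 253 and down in 142. Another 93 features passed at both times with opposite signs, of which 68 were above 0 at 72 h and below 0 at 4 h. The same sign at both times was seen with a larger size at 72 h in 77 features (16 higher, 61 lower) and with a smaller size at 72 h in 65 (48 higher, 17 lower). The remaining 58 passed at neither time alone.

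**Figure D2:**
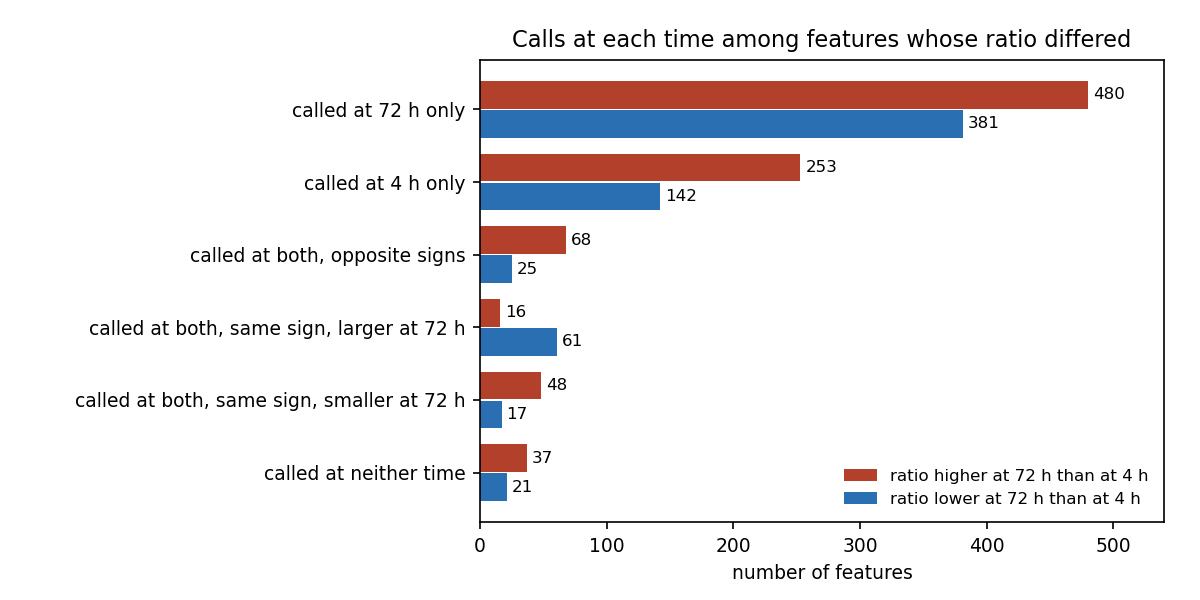
Number of features whose response differed between 72 h and 4 h, sorted by the time at which the response itself passed (bars from 0; red, ratio higher at 72 h than at 4 h; blue, lower). The longest bars are the 480 and 381 features that passed at 72 h only.

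The 12 h arrays were not compared here, although they entered the fit and its error, and they show where the responses stood in between. The 12 h mean lay between the 4 h and 72 h means in 1228 of the 1549 features (79.3%), beside 42.3% of all features tested. A wide gap leaves more room for a value in between, so the 2 shares are a description. Among the 480 features that were higher and passed at 72 h only, the median ratios at 4, 12 and 72 h were -0.13, 0.14 and 1.06. Among the 381 that were lower, they were 0.04, -0.38 and -0.88. The median share of the change already reached at 12 h was 0.33 over the 902 higher features and 0.55 over the 647 lower ones. Features called at 4 h only that were lower at 72 h had covered a median share of 0.71 by 12 h.

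AT5G39580 and PUP18 were among the genes whose response changed sign. AT5G39580 had log2 ratios of 1.62, 2.44, 2.08 and 2.34 on the 72 h arrays and of -2.29, -1.51, -0.75 and -1.09 on the 4 h arrays. All 4 values of 72 h lay above 0 and all 4 of 4 h below it, and the difference was 3.53 ± 0.25 (SE; limma adjusted p = 8.5e-05), an 11.6-fold change of the ratio. PUP18, of the purine permease family whose members move purines and cytokinins across membranes, had 1.51, 2.68, 1.85 and 1.47 at 72 h, against -1.32, -1.37, -0.80 and -1.23 at 4 h. The 2 groups of arrays are separated by more than their own spread, with a difference of 3.06 ± 0.19 (SE; adjusted p = 5.9e-05). At 12 h PUP18 was still at -1.55 ± 0.35 (SD, n = 4), so its sign turned between 12 and 72 h, whereas AT5G39580 averaged 0.38 at 12 h.

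bZIP42, a basic leucine zipper transcription factor, had 1.39, 0.93, 2.06 and 1.70 at 72 h, against -2.59, -0.21, -1.07 and -1.24 at 4 h. Its 4 h values spread widely but none reached 0, and the difference was 2.80 ± 0.42 (SE; adjusted p = 0.0033). AT1G26410 was at 0.48, 0.33, 0.34 and 0.32 at 72 h, against -2.50, -2.20, -2.11 and -2.76 at 4 h. It is the tightest of these genes at 72 h, and most of its difference of 2.76 ± 0.15 (SE; adjusted p = 3.8e-05) is the strong negative ratio of 4 h. The other 6 of the 10 genes with the largest change of sign were AT1G65500, AT5G48430, AT4G18540, AT1G73550, AT3G56220 and AT1G27030, with differences of 2.31 to 3.10, all positive. In AT4G18540 one array of 72 h had no value, and in AT1G65500 the 72 h mean was 1.198, with replicate 3 at 2.93 and the other 3 arrays at 0.32 to 0.80.

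One gene with a symbol turned the other way. ATSPS4F, a sucrose-phosphate synthase, the enzyme class that makes the precursor of sucrose in the cytosol, had -0.78, -0.88, -1.48 and -1.33 at 72 h, against 0.34, 0.76, 0.62 and 0.82 at 4 h. No array of 72 h came near the range of 4 h, and the difference was -1.75 ± 0.18 (SE; adjusted p = 0.00047). It is named here for its known role after its values were seen. Of the 93 features that changed sign, 81 also differed with only the 8 arrays fitted and 93 without 72 h replicate 3.

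AT3G09950 and AT2G38380 had large increases and no response that passed at 4 h. AT3G09950 had 2.14, 3.80, 3.54 and 2.86 at 72 h, against -0.86, -0.23, -0.36 and -0.22 at 4 h, a difference of 3.505 ± 0.23 (SE; adjusted p = 6.2e-05). AT2G38380 had 4.02, 4.65, 2.63 and 4.28 at 72 h, against 0.62, 0.08, 0.65 and 0.61 at 4 h, a difference of 3.40 ± 0.45 (SE; adjusted p = 0.0016). The 2 genes differ in their course, since at 12 h AT3G09950 averaged 0.37 and AT2G38380 already 3.85. AT3G01230, AT3G11990, AT1G11765 and AT5G64190 followed with differences of 3.21, 2.98, 2.90 and 2.85. In the first 3 of these, 72 h replicate 1 was the lowest array, at 1.27, 1.04 and 0.85, where replicates 2 and 3 lay between 3.21 and 4.67.

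Among genes with a symbol and a known role, several regulators and transporters of this class were higher at 72 h. ARL, which acts in the growth of organs by cell expansion, had 1.93, 2.28, 2.97 and 2.51 at 72 h, against 0.20, 1.27, 0.61 and -0.56 at 4 h, a difference of 2.04 ± 0.36 (SE; adjusted p = 0.0073). ARPN, a plantacyanin of the blue copper proteins known from the pistil, had 0.93, 2.72, 3.59 and 2.02 at 72 h, against 0.08, -0.30, -0.53 and 0.07 at 4 h, a difference of 2.48 ± 0.38 (SE; adjusted p = 0.0034). In both genes the lowest 72 h array lay above the highest 4 h array.

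ZIP9, of the zinc transporter family, had 1.86, 1.82, 1.82 and 2.099 at 72 h, against 0.34, 0.21, 0.39 and 0.18 at 4 h, a difference of 1.62 ± 0.25 (SE; adjusted p = 0.0038). The ZIP9 values ran from 1.82 to 2.099 at 72 h and from 0.18 to 0.39 at 4 h, although 72 h replicate 4 stood apart from the others. LUP5, a triterpene synthase, had 2.29, 2.54, 1.47 and 2.57 at 72 h and 0.71, 0.61 and 0.41 on the 3 arrays of 4 h with a value, with a difference of 1.64 ± 0.29 (SE; adjusted p = 0.0094). MT1C, a metallothionein that binds metal ions, was higher by 1.65 (adjusted p = 0.012), and NRAMP5, of a metal transporter family, by 0.77 (adjusted p = 0.010). NRAMP5 did not pass with only the 8 arrays (adjusted p = 0.062).

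Developmental regulators were among the genes that were higher at 72 h. tny (TINY), an AP2/ERF factor, had 2.22, 2.16, 2.62 and 2.21 at 72 h, against 0.32, 0.26, 0.56 and 1.09 at 4 h, a difference of 1.74 ± 0.19 (SE; adjusted p = 0.00061). Its 12 h mean of 2.41 was already as high as that of 72 h. ALC, a bHLH factor of fruit opening, had 0.97, 0.75, 1.35 and 1.07 at 72 h, against 0.04, -0.01, -0.09 and -0.16 at 4 h (difference 1.09 ± 0.15, SE; adjusted p = 0.0017). GIS, a zinc-finger factor of trichome formation, was higher by 1.35 ± 0.25 (SE; adjusted p = 0.0079), UPB1, a bHLH factor that controls peroxidase genes in the root, by 1.47 ± 0.29 (SE; adjusted p = 0.011) and SHI, a zinc-finger regulator of the STYLISH family, by 0.62 ± 0.14 (SE; adjusted p = 0.025). GIS, UPB1 and SHI did not pass with only the 8 arrays (adjusted p = 0.052, 0.058 and 0.077), and the call of SHI ended when replicate 1 or replicate 4 of either time was left out.

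**Figure D3:**
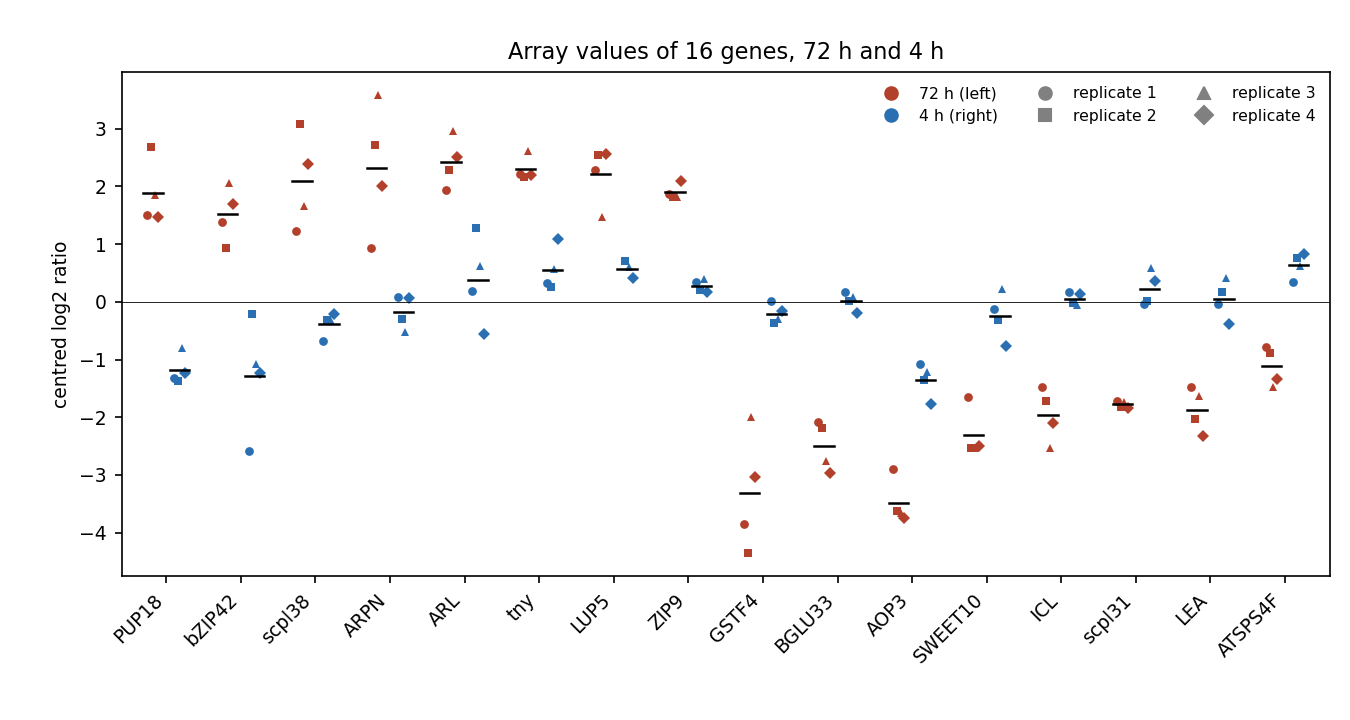
Centred log2 ratio (y axis) of 16 genes on each array, with the 72 h arrays in red on the left and the 4 h arrays in blue on the right of each gene; marker shape gives the replicate and black bars are means. In each gene shown the 72 h arrays and the 4 h arrays occupy separate ranges.

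Among genes with a locus name, values on all 8 arrays and no overlap, AT1G68230 and AT2G32870 had the largest decreases. AT1G68230 had -3.07, -4.10, -3.14 and -3.999 at 72 h, against 0.51, -0.48, -0.25 and 0.15 at 4 h, a difference of -3.56 ± 0.29 (SE; adjusted p = 0.00018). AT2G32870 had -5.59, -2.56, -1.62 and -4.21 at 72 h, against 0.43, -0.45, -0.38 and 0.58 at 4 h, a difference of -3.54 ± 0.61 (SE; adjusted p = 0.0059). Both lay around 0 on the 4 h arrays and low on all 4 arrays of 72 h, with a much wider spread in AT2G32870. The other decreases among the 15 largest ran to -2.05.

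GSTF4, a glutathione S-transferase, an enzyme class of detoxification, had -3.85, -4.35, -1.997 and -3.03 at 72 h, against 0.02, -0.37, -0.29 and -0.17 at 4 h. The highest 72 h array was still far under the lowest 4 h array, and the difference was -3.10 ± 0.41 (SE; adjusted p = 0.0016). BGLU33, of the beta-glucosidase family, had -2.09, -2.18, -2.76 and -2.96 at 72 h, against 0.17, 0.02, 0.08 and -0.20 at 4 h, a difference of -2.51 ± 0.21 (SE; adjusted p = 0.00021). ICL, isocitrate lyase of the glyoxylate cycle, had -1.48, -1.72, -2.53 and -2.09 at 72 h, against 0.17, -0.02, -0.06 and 0.13 at 4 h, a difference of -2.01 ± 0.20 (SE; adjusted p = 0.00049). These 3 genes lay between -0.37 and 0.17 on all arrays of 4 h. At 12 h they averaged -0.71, -0.35 and -0.84.

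LEA, of the late embryogenesis abundant proteins that protect cells during drying, had -1.47, -2.04, -1.64 and -2.32 at 72 h, against -0.04, 0.18, 0.42 and -0.38 at 4 h, a difference of -1.91 ± 0.32 (SE; adjusted p = 0.0056). LEA4-5 of the same broad class went the other way, with 1.17, 1.05, 2.43 and 1.81 at 72 h, against 0.69, -0.39, 0.40 and -0.44 at 4 h (difference 1.55 ± 0.36, SE; adjusted p = 0.024). Genes whose name refers to drying thus stood on both sides, and the drought-linked DI21 and HIS1-3, the second a linker histone, were higher by 1.27 and 1.75 (adjusted p = 0.042 and 0.038). LEA4-5 and DI21 did not pass with only the 8 arrays (adjusted p = 0.093 and 0.10), and leaving out 72 h replicate 4 or 4 h replicates 2 or 4 also ended the calls of LEA4-5, DI21 and HIS1-3. DI21 further lost its call without 4 h replicate 1 or 3 (adjusted p = 0.085 and 0.099). The call of HIS1-3 ended without either of those as well, and without 72 h replicate 2 or 3 (adjusted p = 0.054 to 0.10).

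CHX20, a cation/proton exchanger known from guard cells, had -1.32, -0.93, -1.80 and -1.49 at 72 h, against 0.12, -0.09, 0.12 and -0.31 at 4 h, a difference of -1.34 ± 0.19 (SE; adjusted p = 0.0024). OCT1, an organic cation and carnitine transporter, was lower by 0.70 on the log2 scale at 72 h than at 4 h (-0.70 ± 0.15, SE; adjusted p = 0.015; 0.055 with only the 8 arrays).

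A small set of responses was present at 4 h and larger at 72 h. AOP3, a dioxygenase that modifies the side chains of glucosinolates, had -2.90, -3.62, -3.66 and -3.75 at 72 h, against -1.08, -1.36, -1.21 and -1.76 at 4 h, a difference of -2.13 ± 0.25 (SE; adjusted p = 0.00092). Its 12 h mean of -3.17 was near that of 72 h. AT4G23670 had -3.79, -4.75, -3.24 and -3.73 at 72 h, against -0.41, -0.78, -0.96 and -1.02 at 4 h (difference -3.09 ± 0.30, SE; adjusted p = 0.00045). TET5, a tetraspanin of the plasma membrane, was lower at 72 h by a difference of -1.28 ± 0.16 (SE; adjusted p = 0.0012), with means of -2.42 at 72 h and -1.14 at 4 h. In all 3 genes every array of both times was below 0.

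Responses seen at 4 h had faded by 72 h in a further group. PUB25, a U-box ubiquitin ligase, had 0.09, -0.01, -0.21 and 0.18 at 72 h, against -1.88, -1.39, -1.62 and -1.17 at 4 h, a difference of 1.52 ± 0.17 (SE; adjusted p = 0.00062). WRKY6, a transcription factor known from senescence and phosphate supply, had -0.53, 0.44, -0.01 and -0.09 at 72 h, against -1.91, -1.21, -0.88 and -1.76 at 4 h, a difference of 1.39 ± 0.25 (SE; adjusted p = 0.0077). At 72 h both stood around 0, and at 12 h they averaged -0.17 and -0.10.

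PPDK, pyruvate orthophosphate dikinase, had -0.31, 0.91, 0.35 and 0.22 at 72 h, against -1.62, -1.01, -0.70 and -0.91 at 4 h, a difference of 1.35 ± 0.21 (SE; adjusted p = 0.0038). ATMYC1, a bHLH factor of epidermal cell fate, had -0.07, 0.42, 0.13 and 0.25 at 72 h, against -0.93, -1.12, -1.23 and -0.58 at 4 h, a difference of 1.15 ± 0.18 (SE; adjusted p = 0.0037). The 4 h arrays of both were all below 0, and the 12 h means of -0.08 and 0.37 were no longer so low. CYP71B24, a cytochrome P450, had the strongest positive 4 h ratio among the genes described and kept part of it, with 0.86, 0.81, 1.00 and 1.08 at 72 h, against 2.11, 2.56, 2.25 and 1.95 at 4 h (difference -1.28 ± 0.18, SE; adjusted p = 0.0022).

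NRT2.5, a high-affinity nitrate transporter, had -1.56, 0.87 and -2.89 on the 3 arrays of 72 h with a value, against 2.11, 1.73, 1.56 and 2.72 at 4 h. The difference was -3.30 ± 0.74 (SE; adjusted p = 0.025), and one 72 h array was above 0. It did not pass with only the 8 arrays (adjusted p = 0.071), nor when 72 h replicate 2 (adjusted p = 0.063) or 4 (0.11) or 4 h replicate 1, 2 or 4 (0.056, 0.054 and 0.078) was left out. In some other genes with large differences the arrays of 72 h spread widely. AT1G56380 was at 4.18 on 72 h replicate 3 and between -0.50 and 0.59 on the other 3 arrays of 72 h, against -3.08 to -1.90 at 4 h (difference 3.47 ± 0.82, SE; adjusted p = 0.028; 0.12 with only the 8 arrays). Without 72 h replicate 3 its difference was 2.41 and passed (adjusted p = 0.0053), whereas it did not pass without 72 h replicate 1 (0.057) or without 4 h replicate 2, 3 or 4 (0.064 to 0.080). AT3G30840 was at -3.28 on 72 h replicate 2 and between -0.27 and 0.01 on the others, against 1.69 to 1.83 at 4 h (difference -2.69 ± 0.57, SE; adjusted p = 0.016; 0.076 with only the 8 arrays). Without 72 h replicate 2 its difference was -1.94 and passed (adjusted p = 0.0013), and it did not pass without 4 h replicate 3 or 4 (0.052 and 0.053). AT5G56050 was high on 72 h replicates 2 and 3 only, at 2.90 and 4.15, and at -0.50 and -0.80 on the other pair, against -1.40 to -1.12 at 4 h. Its difference of 2.75 ± 0.73 (SE; adjusted p = 0.044) did not pass without 72 h replicate 2 or 3 (adjusted p = 0.087 and 0.070). Nor did it pass when any one of the 4 h arrays was left out (adjusted p = 0.056 to 0.12). BGLU36, of the beta-glucosidase family, had 0.51, 3.29 and 1.77 on the 3 arrays of 72 h with a value, against -0.38, -0.65, -0.66 and 0.40 at 4 h (difference 2.34 ± 0.44, SE; adjusted p = 0.012; 0.069 with only the 8 arrays). Among genes with a locus name, values on all 8 arrays and no overlap, the 15 largest increases and the 15 largest decreases were taken, of which 13 and 12 also passed with only the 8 arrays.

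Enzymes of small-molecule glycosylation and oxidation moved in both directions. Of 38 measured UDP-glycosyltransferases, which attach sugars to hormones and secondary metabolites, 5 were higher and 4 lower, beside 4.98% and 3.57% of all features, with a median difference of 0.07, beside 0.00 over all features. Of all genes with a symbol 10.1% differed, which is also the share to set beside the counts of the families below. UGT73B5 had -0.03, -0.74, 0.44 and -0.06 at 72 h, against -1.68, -1.62, -1.10 and -1.52 at 4 h (difference 1.38 ± 0.24, SE; adjusted p = 0.0062). UGT73C1, which can glucosylate cytokinins, had -0.83, -0.38, -0.49 and -0.81 at 72 h, against -1.72, -1.43, -1.58 and -1.93 at 4 h (difference 1.04 ± 0.22, SE; adjusted p = 0.015). In UGT73B5 and UGT73C1 a low ratio of 4 h had moved towards 0.

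UGT76E1 had 0.44, -0.36, -0.70 and -0.24 at 72 h, against 0.85, 1.48, 1.42 and 1.43 at 4 h (difference -1.51 ± 0.24, SE; adjusted p = 0.0040). UGT85A5, UGT88A1 and UGT72E1 were higher at 72 h by 1.05, 0.59 and 0.53, and UGT74B1, an enzyme of glucosinolate synthesis, UGT76E2 and UGT71C3 were lower by differences of -1.01, -0.69 and -0.55. Of these 6, none passed with only the 8 arrays (adjusted p = 0.054 to 0.13), where the family held 2 higher and 1 lower member. With limit values kept, UGT85A5 changed sign. Of 15 CYP71B cytochromes P450, CYP71B26, CYP71B37 and CYP71B35 were higher, by 0.99, 0.92 and 0.85, and CYP71B24 was lower. CYP71B37 did not pass with only the 8 arrays (adjusted p = 0.052). CYP71B26 and CYP71B37 also lost their calls without 4 h replicate 2, 3 or 4 or 72 h replicate 1, 2 or 4 (adjusted p = 0.052 to 0.11). Of 11 glutathione S-transferases, GSTU16 was higher and GSTF4 lower, and GSTF4 alone of them passed with only the 8 arrays.

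Of 23 serine carboxypeptidase-like proteins, a family that includes proteases and acyltransferases, 3 were higher and 3 lower, beside 6.3% and 3.78% of the genes with a symbol, with a median difference of -0.25. scpl38 had 1.23, 3.08, 1.67 and 2.39 at 72 h, against -0.67, -0.32, -0.33 and -0.22 at 4 h (difference 2.48 ± 0.34, SE; adjusted p = 0.0018). scpl31 had -1.71, -1.83, -1.74 and -1.83 at 72 h, against -0.04, 0.01, 0.59 and 0.35 at 4 h (difference -2.004 ± 0.14, SE; adjusted p = 8.5e-05), and its 12 h mean of -1.75 equalled that of 72 h within the spread. scpl37 and scpl35 were higher by 1.44 and 1.06, and SCPL34 and scpl29 lower by differences of -0.78 and -0.62. Of the 6, scpl35 and scpl29 did not pass with only the 8 arrays (adjusted p = 0.062 and 0.13). scpl33 had the widest spread, with values from -2.60 to 2.47 at 72 h and from -6.61 to -2.16 on 3 arrays of 4 h, and its difference of 3.89 ± 1.29 (SE) did not pass (adjusted p = 0.11).

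Of 13 SWEET sugar transporters, 3 were lower and 1 was higher at 72 h, beside 3.78% and 6.3% of the genes with a symbol, with a median difference of -0.27. SWEET10, a sucrose transporter, had -1.65, -2.54, -2.54 and -2.49 at 72 h, against -0.13, -0.32, 0.22 and -0.77 at 4 h (difference -2.05 ± 0.27, SE; adjusted p = 0.0014). The 72 h and 4 h arrays are apart, and the 12 h mean of -1.16 lay between them. SWEET17, a fructose transporter of the vacuole, and SWEET3 were lower by differences of -1.01 and -0.81, and SWEET11, which exports sucrose for phloem loading, was higher by 0.85. The means of SWEET11 were -0.93, -1.79 and -0.08 at 4, 12 and 72 h. With only the 8 arrays SWEET10 alone of the family passed, and the adjusted p of the other 3 was 0.11 to 0.12. SWEET16 had 3 values at 72 h of -3.15, 0.00 and -0.50, all below the 4 h range of 0.79 to 1.64, and did not pass (adjusted p = 0.056), although it did when 72 h replicate 2 or replicate 3 was left out. Of the 14 measured beta-glucosidases, BGLU36 and BGLU25 were higher and BGLU33 and ATA27 lower, beside 10.1% of the genes with a symbol in either direction. With only the 8 arrays BGLU33 alone of them passed (BGLU25, adjusted p = 0.11). Other families with 1 or 2 passing members were the 16 IQD calmodulin-binding proteins (1 higher, 1 lower), the 14 tetraspanins (TET3 higher, TET5 lower), the 10 bZIP factors (bZIP42), the 8 RALF-like peptides (RALFL25), the 5 cation/proton exchangers (CHX23 higher, CHX20 lower) and the 3 purine permeases (PUP18). TET3 (adjusted p = 0.13), CHX23 (0.079) and the IQD members did not pass with only the 8 arrays.

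**Figure D4:**
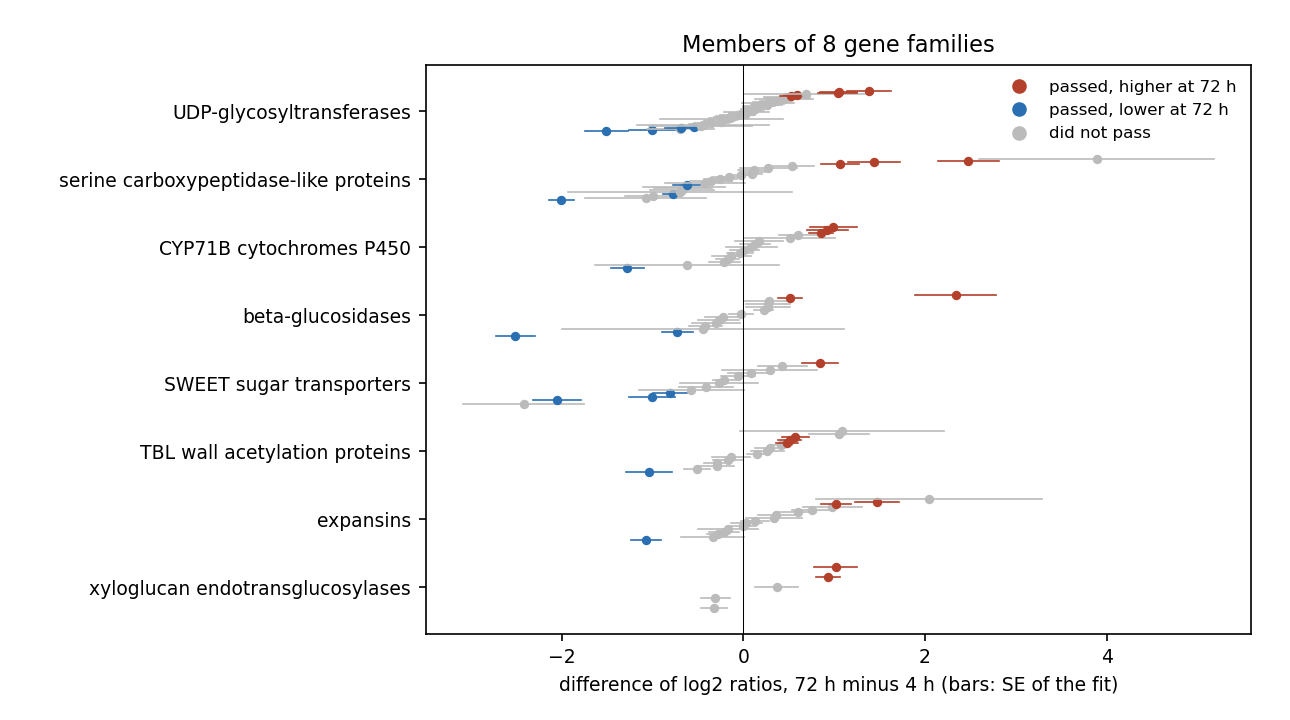
Difference of log2 ratios, 72 h minus 4 h (x axis), of each measured member of 8 families, with the SE of the fit as bars. Red members were higher and blue ones lower at 72 h past the threshold, grey ones did not pass, and 7 of the 8 families have passing members on both sides of 0.

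Expansins loosen the wall without cutting it, and of 16 measured members EXPB5 and EXPB3 were higher and EXPA24 was lower. EXPB5 had 0.41, 1.21, 1.92 and 1.22 at 72 h, against -0.39, -0.32, -0.51 and 0.08 at 4 h (difference 1.47 ± 0.24, SE; adjusted p = 0.0049). EXPB3 had 0.35, 0.26, 0.11 and -0.37 at 72 h, against -1.06, -0.85, -0.94 and -0.87 at 4 h (difference 1.02 ± 0.16, SE; adjusted p = 0.0039). EXPB5 was thus above 0 at 72 h, while EXPB3 was back near 0 after a low ratio at 4 h. EXPA24 had -0.89, -1.25, -1.19 and -1.33 at 72 h, against -0.23, 0.07, -0.21 and 0.00 at 4 h (difference -1.07 ± 0.17, SE; adjusted p = 0.0035).

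Of 5 xyloglucan endotransglucosylases, which cut and rejoin xyloglucan, XTH33 and XTH19 were higher. XTH33 had 1.04, 1.49, 1.54 and 0.94 at 72 h, against 0.37, 0.25, 0.42 and 0.24 at 4 h (difference 0.93 ± 0.13, SE; adjusted p = 0.0024), with a 12 h mean of -0.40 below both. GH9B8, an endoglucanase, had 1.41, 1.64, 0.87 and 0.97 at 72 h, against -0.01, -0.03, 0.18 and 0.20 at 4 h (difference 1.14 ± 0.18, SE; adjusted p = 0.0038). CSLC04, a synthase of the xyloglucan backbone, was higher by 1.00 ± 0.21 (SE; adjusted p = 0.016; 0.083 with only the 8 arrays and 0.050 without 72 h replicate 4). XTH19 and GH9A4 did not pass with only the 8 arrays (adjusted p = 0.055 and 0.14), and GH9A4 changed sign with limit values kept. Of 15 TBL proteins, which acetylate wall polysaccharides, TBL35, TBL24 and TBL38 were higher, by 0.48 to 0.57, and TBL39 was lower by a difference of -1.04. None of these 4 passed with only the 8 arrays.

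Genes known from pollen and the egg cell were taken as a list of 31 loci, drawn up after values had been seen, and 12 of them were measured. Of the 12, 6 were higher at 72 h and 0 lower, beside 4.98% and 3.57% of all features, with a median difference of 0.63; a list drawn up this way is a description. RALFL25, a RALF-like signalling peptide, had 0.95, 3.41, 3.501 and 0.81 at 72 h, against -1.03, -0.39, -0.31 and 0.01 at 4 h (difference 2.59 ± 0.46, SE; adjusted p = 0.0071). AT59, a pectate lyase-like protein of pollen, had 0.23, 3.34, 2.20 and 0.98 at 72 h, against -0.91, -0.46, -0.52 and 0.19 at 4 h (difference 2.11 ± 0.41, SE; adjusted p = 0.010). In both genes replicates 2 and 3 of 72 h were well above the other pair.

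EC1.1, a small secreted protein of the egg cell that acts in gamete fusion, had 1.01, 2.04, 2.20 and 1.90 at 72 h, against -0.06, 0.07, -0.45 and 0.05 at 4 h (difference 1.88 ± 0.23, SE; adjusted p = 0.0011). PLIM2a, an actin-bundling protein of pollen, had 0.56, 1.92, 1.42 and 1.15 at 72 h, against -0.84, -0.06, 0.02 and -0.29 at 4 h (difference 1.56 ± 0.27, SE; adjusted p = 0.0061). CHX23, a cation/proton exchanger of pollen, had 0.04, 1.66, 1.16 and 1.49 at 72 h, against -0.51, -0.21, -0.25 and 0.05 at 4 h (difference 1.32 ± 0.28, SE; adjusted p = 0.016). The CHX23 ranges overlap, since 72 h replicate 1 lay just under the highest 4 h array. AGL66, a MADS-box factor of pollen, was higher by 0.68 ± 0.18 (SE; adjusted p = 0.046), and each leave-one-out fit of the 4 h and 72 h arrays ended its call.

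The other 6 genes of the list did not pass. EC1.3, a second egg cell gene, was at 0.95, -0.65, 0.96 and 0.98 at 72 h, against 0.08, -0.12, -0.43 and 0.37 at 4 h. VGD1 and VGDH1, pectin methylesterases of the pollen tube, had differences of -0.67 and 0.01, ANX1, a receptor kinase of the pollen tube, -0.14, and the pollen MADS-box factors AGL65 and AGL104 -0.22 and -0.01. The mean ratio over the 12 genes was 0.20, 1.09, 0.68 and 0.59 on the 72 h arrays, against -0.24, -0.26, -0.05 and -0.21 on the 4 h arrays. Replicate 1 was thus the lowest array of 72 h, and every array of 72 h was above every array of 4 h. Because the list was drawn up after values had been seen, this separation is a description and adds no support. Buds of stages 1 to 9 precede mature pollen. A difference in bud age or in the makeup of the tissue between Dex and mock plants was not tested. AT59, CHX23, EC1.1, PLIM2a and RALFL25 passed whichever array of 72 h was left out, and EC1.3 passed too without replicate 2 (adjusted p = 0.010). CHX23 did not pass without 4 h replicate 3 (adjusted p = 0.052). With only the 8 arrays 4 genes passed, and CHX23 did not (adjusted p = 0.079).

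**Figure D5:**
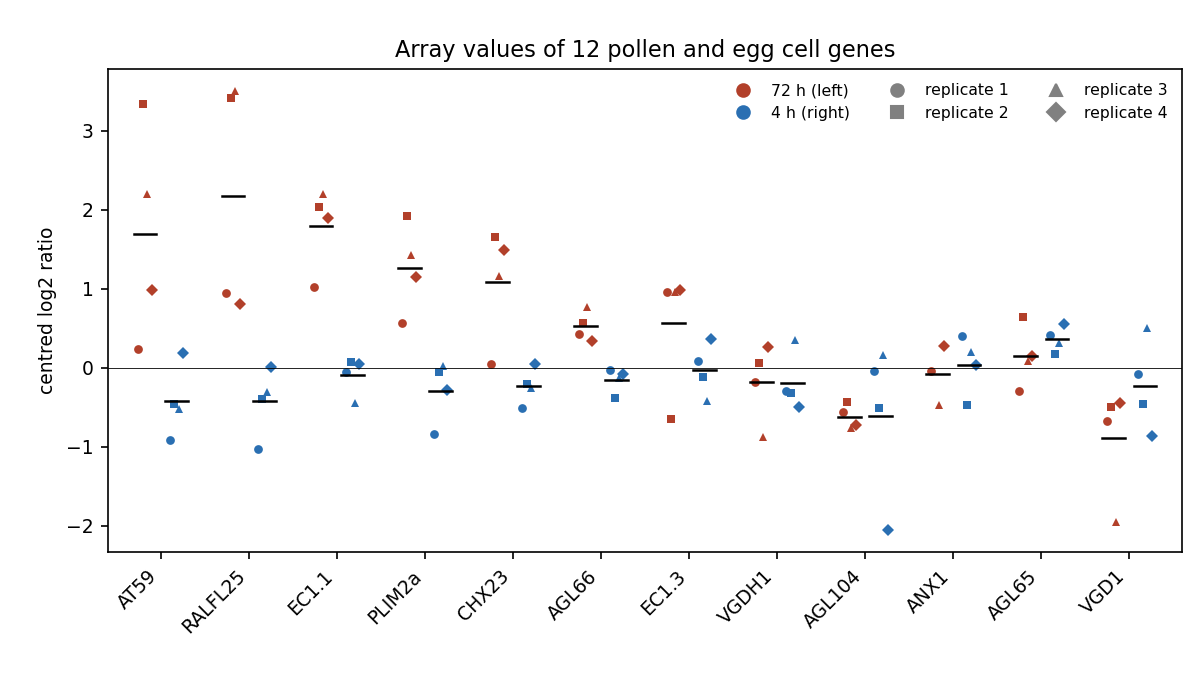
Centred log2 ratio (y axis) of 12 pollen and egg cell genes on each array, with the 72 h arrays in red on the left and the 4 h arrays in blue on the right; marker shape gives the replicate and black bars are means. The first 6 genes from the left passed the test and the other 6 did not, and in AT59 and RALFL25 replicates 2 and 3 of 72 h lie highest.

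AMS, a bHLH factor needed in the tapetum, had -0.62, -0.82, -0.88 and -0.37 at 72 h, against 0.35, 0.03, -0.02 and 0.02 at 4 h (difference -0.77 ± 0.13, SE; adjusted p = 0.0048). It was the 1 gene to pass of 4 measured in the list of anther and tapetum genes, whose other measured members were SPL at a difference of -0.32, ROXY1 at -0.40 and EMS1 at -0.63 (adjusted p = 0.17, 0.17 and 0.081). The median of the list was -0.52. ATA27, a beta-glucosidase of the tapetum, was lower by a difference of -0.73 ± 0.17 (SE; adjusted p = 0.027; 0.099 with only the 8 arrays). REM22, a B3-domain factor, had -1.04, -1.31, -1.28 and -1.28 at 72 h, against -0.20, -0.07, -0.36 and -0.25 at 4 h (difference -1.004 ± 0.12, SE; adjusted p = 0.00075). INO, a YABBY factor of the outer integument of the ovule, had -1.11, -0.87, -0.56 and -0.80 at 72 h, against 0.43, 0.58, -0.06 and 0.38 at 4 h (difference -1.17 ± 0.17, SE; adjusted p = 0.0030). The INO arrays of 72 h were all below 0, and at 12 h INO averaged -0.07.

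Other lists of flower development and hormones held few measured genes. Of the meristem and boundary list 5 of 15 loci were measured and 0 passed, beside 8.55% of all features. LOB, a boundary gene, came closest, at 0.39, 0.64, 1.36 and 0.37 at 72 h, against -3.07, -0.17, -0.14 and -0.92 at 4 h (difference 1.76 ± 0.53, SE; adjusted p = 0.070). Its arrays did not overlap, and 4 h replicate 1 was far below the rest. In the floral identity list 1 gene was measured, UFO, an F-box regulator of petal and stamen identity, with a difference of 0.07 (adjusted p = 0.81). Of the organ polarity list 4 were measured, and beside INO the genes JAG, YAB3 and PHV had differences of 0.06, -0.36 and -0.16.

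Of the auxin list 5 of 10 loci were measured and 0 passed, beside 8.55% of all features, with IAA29, an auxin-responsive repressor, at the largest difference of 1.17 ± 0.45 (SE; adjusted p = 0.15). ARR15, a type-A cytokinin response regulator, was at -1.37, -1.25, -0.29 and -1.48 at 72 h, against -1.73, -1.86, -2.15 and -1.18 at 4 h, a difference of 0.63 that did not pass (adjusted p = 0.17). The ARR15 ratio was below 0 on all 8 arrays. Of the photosynthesis list, PORB had a difference of -0.64 (adjusted p = 0.058) and LHCB4.1 of -0.44 (adjusted p = 0.51).

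Enzymes that make volatile esters differed in direction. JMT, which methylates jasmonate, had 0.07, -0.10, -0.03 and -0.45 at 72 h, against -0.84, -0.77, -0.98 and -0.91 at 4 h (difference 0.75 ± 0.21, SE; adjusted p = 0.049). BSMT1, which methylates salicylate and benzoate, had -0.18, -0.01, 0.61 and -0.13 at 72 h, against -0.41, -1.13, -0.86 and -1.04 at 4 h (difference 0.93 ± 0.22, SE; adjusted p = 0.028). CHAT, which acetylates a leaf alcohol, had -2.03, -1.57, -2.01 and -1.78 at 72 h, against -1.29, -0.92, -1.11 and -0.72 at 4 h (difference -0.84 ± 0.19, SE; adjusted p = 0.020). JMT and BSMT1 had thus lost their negative ratio by 72 h, while that of CHAT had grown. None of the 3 passed with only the 8 arrays (adjusted p = 0.056, 0.096 and 0.057), and leaving out any one of the 8 arrays ended the call of JMT.

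Some genes that lie next to each other on a chromosome differed together. Among 4370 pairs of neighbouring protein-coding genes that were both tested, both differed in 42, in the same direction in 32 (13 higher, 19 lower) and in opposite directions in 10. Of the neighbours of a gene that differed, 12.0% differed too, beside 7.99% of the genes in such pairs. On chromosome 2, BGLU33, AT2G32870 and AT2G32880 follow each other and were lower by differences of -2.51, -3.54 and -1.91. On chromosome 4, AT4G23670 and AT4G23680 were lower by differences of -3.09 and -1.67, the second not passing with only the 8 arrays (adjusted p = 0.057) or without 72 h replicate 4 (0.054), and on chromosome 5 so were UGT76E1 and UGT76E2. On chromosome 4, DI21 and SWEET17 are neighbours with opposite directions, at 1.27 and -1.01. Probes of near-identical neighbouring copies can share signal, so such pairs are uncertain as separate genes.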

How the data were processed

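The values were deposited by the authors as log2 ratios per probe and array of a 2-colour oligonucleotide array; the base was read from the limits of the values. Per the labels' protocols, amplified RNA was labelled; for background correction, normalization and ratio direction, the sources used here state nothing. The table had 26540 rows; 450 controls were left out. Of 26090 gene probes, 13960 had 1 gene name in the platform annotation, 0 several and 12130 none; 13912 matched the TAIR10.1 gene table by gene ID, used for names and neighbours. Probes of one of the 13739 loci were averaged, and 0 columns lacked a sample.

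Values at the limits were set missing, arrays were centred on their median, and features with at least 3 of 4 values at each time were tested (18125, of which 10649 were named). A limma 3.58.1 model (R 4.3.3) with a mean per time and a dye term from the labels used all 12 arrays; a fit that meets a missing value drops that array for that feature. P-values were two-sided with Benjamini-Hochberg adjustment and a threshold of 0.05. They set each difference against an error estimated from the arrays of all times. The model was also run on simulated data with the same spread at every time and no dye effect. That run cannot show how the fit behaves where the spread differs between times, as it does here. Errors are the fit's SE unless given as SD. The number of arrays limits the precision. Shared replicate numbers were not treated as pairs.

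The genes named were the 15 largest differences of each sign among named genes with 8 values and no overlap, up to 4 per family with at least 3 passing members, all measured list members, the 8 largest of each sign with a symbol and the 10 largest changes of sign. The 16 families are defined by symbols, because the gene table has no descriptions. The members and lists were chosen with earlier results of these data known; the families, the pollen and egg cell list and the further genes described by role were chosen after values were seen. No sequences are shown.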

Additional observations from a re-analysis of the deposited data

Results flagged for a closer look

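The comparison itself was flagged because the response differed between times in 1549 features. In 256 groups of 4 arrays, from 133 genes checked, 1 array stood far from the other 3 in 16 groups; chance flags about 1 in 20 groups. At 72 h these were replicate 1 for AT1G26410 (0.48), REM22 (-1.04), AOP3 (-2.90) and SWEET10 (-1.65). Replicate 2 was apart for EC1.3 (-0.65), AT3G30840 (-3.28) and TBL24 (0.85), replicate 3 for VGD1 (-1.95) and tny (2.62), and replicate 4 for ZIP9 (2.099). At 4 h, replicate 1 was apart for AMS (0.35), CSLC04 (-1.25), TET3 (0.054), scpl37 (-0.75) and UGT76E1 (0.85), and replicate 2 for AT2G38380 (0.084).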

How the results depend on the processing

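The count of features that differed was 1549 as reported, 592 with only the 8 arrays, 950 with those arrays and the dye of the blank spots (added after seeing the data), 1010 with a replicate block, 775 with one weight per time point, 3279 with weights per array, and 601 at adjusted p under 0.01. It was 763 when the p-values of the main fit were adjusted over the named genes alone (added after seeing the data), where fewer genes are tested. Keeping the limit values gave 873. Leaving out 1 array gave 1011 (4 h replicate 4) to 1685 (72 h replicate 3). The other settings gave 1401 to 1911. With the limit values in the fit, 26 of the 1549 had the other sign, among them UGT85A5 (-0.71) and GH9A4 (-0.42); under every other setting tried, 0 had. The 8-array fits use fewer samples and leave out the 12 h arrays, whose median SD of 0.19 was the smallest of the times. Weights per time point allow the wider spread of 72 h, and the cause was otherwise not tested. The main fit did not pair replicates by their numbers. Deviations of same-numbered arrays of 4 h and 72 h correlated at -0.22 to -0.09, and those of 4 h and 12 h, which are not compared here, at 0.18 to 0.32. Across all pairs of arrays checked, the correlation was above 0 where the blank spots had the same sign on both arrays and below 0 where they differed. Differently numbered arrays of 4 h and 12 h with the same sign correlated at 0.19 to 0.30. Those of 4 h and 72 h with opposite signs correlated at -0.23 to -0.08. Same-numbered arrays thus lay in about the same range as other arrays with the same relation of signs. Of 105 named genes that differed, 68 also did with only the 8 arrays, and 33 lost the call when some single array was left out. Precision is limited by the number of arrays.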
